A study of Mus musculus with 12 samples.

Results

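The transcriptome described here is that of 6 subcutaneous AB1-HA tumours from mice given phosphate-buffered saline (PBS), the vehicle arm of a study of 12 tumours. The members were chosen by their label: the 6 libraries labelled PBS, of 12 in all. AB1 is an asbestos-induced mesothelioma cell line of the BALB/c mouse, and AB1-HA is its derivative that expresses the haemagglutinin of influenza virus, a transcript not analysed here. The hosts were male BALB/c mice of 8 to 10 weeks, PBS was given on days -3, 0 and 7 relative to inoculation, and the tumours were excised on day 9. The other 6 tumours came from mice given 100 µg of an antibody to CD4 on the same days, and they are not used here. Every tumour grew from 1 cell line, so differences between tumours do not sample different cancers. The labels number the tumours 1 to 6 and do not say which mouse each came from, so the spread between them may be partly technical.

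Mesothelioma arises from the mesothelium, the sheet of cells that lines the pleural and peritoneal cavities. A tumour grown under the skin holds the injected cancer cells together with cells of the host: fibroblasts, blood vessels, nerves, macrophages and lymphocytes, and at its edge the thin muscle layer and the fat of the skin. Bulk RNA sequencing reads all of these at once, and in such samples fewer cells of a type and less RNA per cell cannot be told apart. The 6 tumours shared a genotype, host strain and treatment, so they show the level at which each of these tissues was represented in a vehicle-treated tumour and how far it varied from one tumour to the next.

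Ribosomal and globin RNA were depleted before 100 bp paired-end sequencing. The libraries held 30746690 to 41932945 estimated counts, fewest in tumour 4 and most in tumour 1. Of 35999 gene symbols, 15323 reached 1 CPM (counts-per-million) in at least 3 of the 6 tumours and are called kept genes. All levels below are CPM after TMM scaling, which sets the libraries to a common effective size. The mitochondrially encoded genes took 1.28% to 2.68% of the counts. Across genes the correlation between any 2 tumours lay between 0.976 and 0.991, and every pair differed by more than counting noise, with a chi-square of 14.3 to 54.4 per degree of freedom. That chi-square used rounded estimated counts and library totals without TMM scaling. It is therefore approximate and includes differences of scaling. The 4 Y-linked genes measured (Ddx3y, Eif2s3y, Kdm5d and Uty) together stood at 53.4 to 81.5 CPM, in hosts labelled male. Xist was not analysed here.

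Levels can be compared between genes only after division by transcript length, which gives TPM (transcripts-per-million). On that scale the highest nuclear protein-coding gene was Col3a1, the chain of type III collagen, at a mean of 28649.8 TPM. It was followed by Eef1a1, a translation elongation factor, at 12612 TPM and Actb, cytoplasmic actin, at 10819 TPM. The length used was the median over all annotated coding transcripts of a gene, short ones included, which can overstate a level. Col3a1 had 12451.5 CPM and 28649.8 TPM, whereas the collagen Col1a2 had 4571.8 CPM and 2504 TPM. The first rank of Col3a1 is therefore uncertain, as are the ranks of Myh9 (1282.9 CPM, 3447 TPM) and Iqgap1 (769.2 CPM, 2335.6 TPM). The 20 highest genes held 11.3% of the length-scaled total. They comprised matrix (Col3a1, Col1a2), cytoskeleton and membrane (Actb, Actg1, Vim, Myh9, Ahnak, Cav1, Iqgap1), translation (Eef1a1, Pabpc1, Eif4g2, Tpt1, Rplp1), a chaperone (Hsp90ab1), ferritin (Ftl1), the class I molecule H2-D1, and Ccnb1ip1, Slc38a6 and Noct. The value of Ccnb1ip1 is uncertain, because its span on chromosome 14 holds, on the same strand, the gene of the RNase P RNA, Rpph1, and reads of the 2 genes could not be told apart here. The span of Noct likewise holds, on the same strand, the gene model Gm38357, which was not among the symbols counted. The value of Noct is therefore uncertain too. The order depends on the length used: with the length of all exons joined in place of the median coding transcript, 10 of the 20 genes stayed among the 20 highest.

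The abundance of each tissue was followed with 34 gene lists. For each list the CPM of its measured genes were summed in every tumour. A sum can rest on 1 gene that other cells also express. The gelatinase Mmp9 gave a mean of 273.9 of the 305.0 CPM of the neutrophil list. The monocyte list shares the matrix gene Fn1 with the fibroblast and matrix list. These 2 sums are therefore not measures of neutrophils or monocytes.

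**Figure D1:**
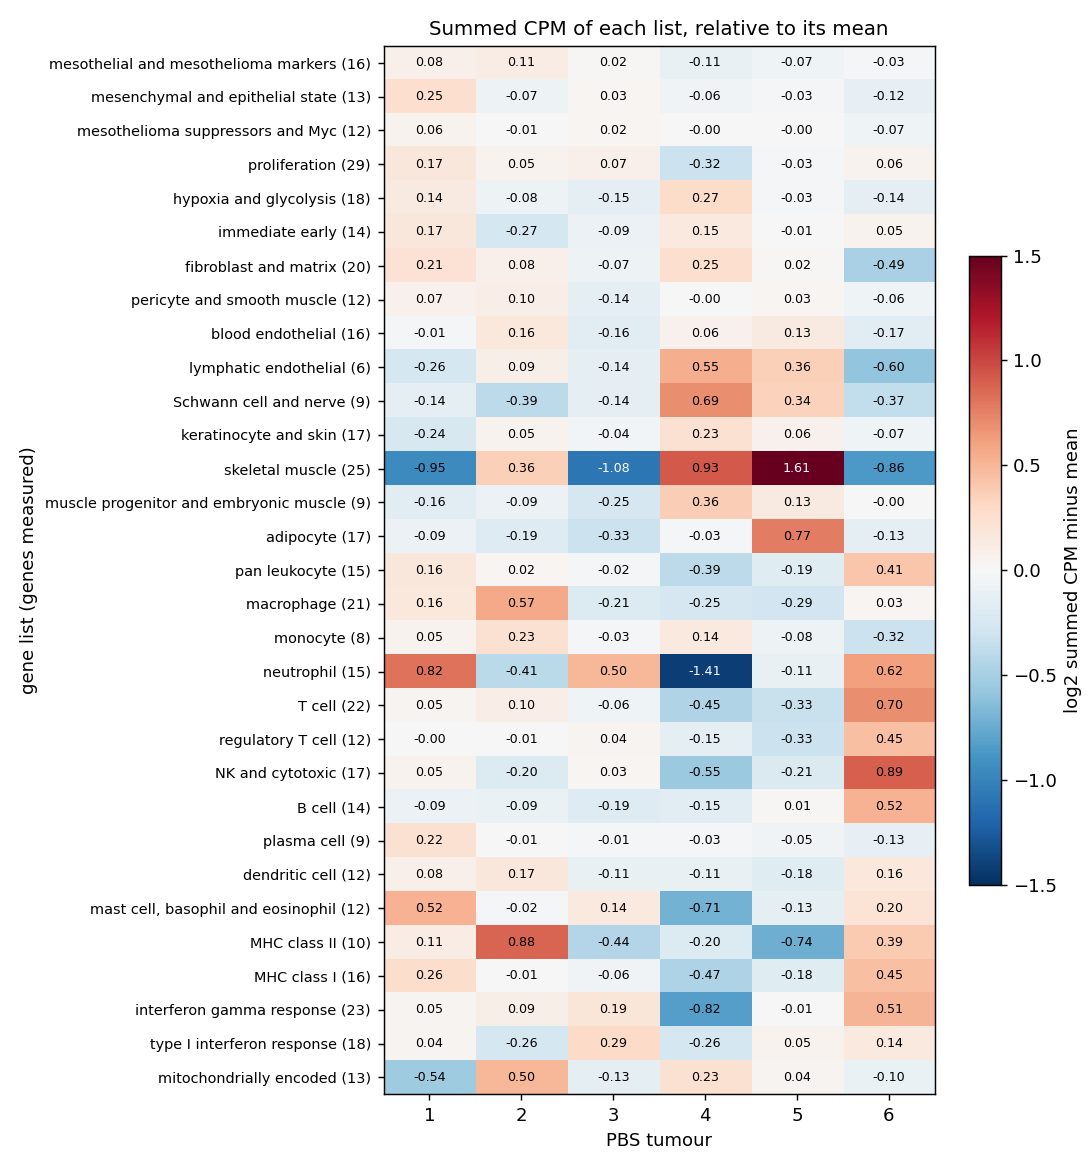
Summed CPM of 31 gene lists in the 6 PBS tumours, as the log2 difference from the mean of the 6; columns are tumours, and the number in parentheses counts the genes measured. Skeletal muscle spans the widest range, from -1.08 in tumour 3 to 1.61 in tumour 5, and the mesothelioma suppressor list the narrowest.

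Some mesothelial markers were expressed in every tumour and others were near 0. Mesothelin (Msln), a surface glycoprotein of mesothelial cells and of mesothelioma, stood at 139, 143, 134, 97.8, 119.8 and 141 CPM in tumours 1 to 6. The range was 1.46-fold, and tumour 4 was lowest. The mucin-type glycoprotein podoplanin (Pdpn) and N-cadherin (Cdh2) were steadier, at 25.6 to 30.4 and 89.3 to 101 CPM. Wt1, the transcription factor used to diagnose mesothelioma, was much lower at 1.24 to 2.23 CPM (1.96 TPM, against 105 TPM for Msln). Several defining mesothelial genes were at or near 0: calretinin (Calb2) at 0.0253 to 0.230 CPM, the keratins Krt18 at 0.0253 to 0.133 and Krt19 at 0.0248 to 0.290, Upk3b at 0 to 0.292 and the CA125 mucin Muc16 at 0 to 0.0288 CPM. Of the 16 genes of the list, 7 were kept.

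The mesenchymal genes were high in every tumour. Vimentin (Vim), the intermediate filament of mesenchymal cells, stood at 3610.2, 2746, 2961, 2789.7, 2839.7 and 2656 CPM, highest in tumour 1, which stood apart from the other 5. The transcription factors Zeb1 (127 to 153 CPM), Zeb2 (248 to 322), Snai1 (20.04 to 25.8) and Twist1 (54.8 to 72.7), which repress epithelial genes, were all kept and varied by at most 1.33-fold. The epithelial genes Epcam, Cldn4, Cldn7, Esrp1 and Ovol1 were below the filter, and E-cadherin (Cdh1) reached 9.13 to 24.2 CPM. Cdh1 was highest in tumour 2 and lowest in tumour 5.

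Of the tumour suppressors lost in mesothelioma, Cdkn2a, which encodes p16INK4a and p19ARF, was near 0 in all 6 tumours, at 0.298, 0.173, 0.380, 0.129, 0.0301 and 0.133 CPM. Its neighbour Cdkn2b stood at 0.572 to 0.891 CPM, and the adjacent metabolic gene Mtap was kept at 6.99 to 11.9 CPM. Nf2, the upstream regulator of the Hippo pathway (189 ± 13.0 CPM (SD, n = 6)), Bap1, a deubiquitinase (68.8 ± 5.28), and the Hippo kinases Lats1 (106 ± 4.69) and Lats2 (97.6 ± 8.47) were expressed in every tumour. Trp53 stood at 72.3 to 116 CPM and Myc at 66.1 to 95.9 CPM, both lowest in tumour 4. Setd2, a histone methyltransferase, was the steadiest of the list, at 187 to 203 CPM. These are transcript levels from cancer and host cells together.

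Cell cycle genes had nearly the same tumour at each end. All 29 proliferation genes were kept. Tumour 4 had the lowest value for 28 of the 29, where 24.7% of all kept genes were lowest in that tumour, and tumour 1 had the highest for 21, against 24.4% of all kept genes. Mki67, which encodes the Ki-67 antigen of cycling cells, stood at 653, 588, 689.9, 502, 642 and 668 CPM. The helicase subunit Mcm4 stood at 117, 116, 106, 73.0, 93.0 and 103 CPM and the mitotic kinase Plk1 at 86.8, 71.3, 68.9, 45.3, 60.6 and 66.7 CPM. The steps were small: the summed list spanned 1.41-fold, from 2756 to 3891 CPM, and tumours 2, 3, 5 and 6 lay between the 2 extremes. Tumour 4 was also the shallowest library and tumour 1 the deepest. With all libraries thinned to the lowest total, 29 genes were lowest in tumour 4 and 19 highest in tumour 1.

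The promoter of the mitotic cyclin gene Ccnb2 is shown because nearly all genes of the list were lowest in the same tumour. Its promoters were searched for 2 elements, CCAAT and the cell cycle homology region (CHR, TTTGAA), counted on both strands. Of 24 proliferation genes found in the RefSeq promoter table (GRCm38.p6, 250 bases before to 50 after the start), 23 of 25 promoters held CCAAT and 13 of 25 held the CHR letters. Of all 32851 promoters of this length, 37.4% and 17.9% did. Capitals mark both elements in the Ccnb2 sequence, at chr9:70421505-70421804 on the minus strand.
Ccnb2: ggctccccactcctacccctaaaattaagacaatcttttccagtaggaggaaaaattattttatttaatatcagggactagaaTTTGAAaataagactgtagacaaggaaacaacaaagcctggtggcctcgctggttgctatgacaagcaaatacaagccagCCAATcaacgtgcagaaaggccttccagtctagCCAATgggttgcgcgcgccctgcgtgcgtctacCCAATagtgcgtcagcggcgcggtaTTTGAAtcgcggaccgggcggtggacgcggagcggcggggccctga
The Ccnb2 transcript stood at 63.4, 48.4, 49.3, 40.1, 46.7 and 48.8 CPM in tumours 1 to 6, highest in tumour 1 and lowest in tumour 4. A match is a description of letters and shows no binding.

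Genes of the response to low oxygen were highest in tumour 4. Tumour 4 had the highest value for 15 of the 18 hypoxia and glycolysis genes (19.5% of all kept genes were highest there). Carbonic anhydrase 9 (Car9), a membrane enzyme induced by hypoxia, stood at 12.3, 2.76, 6.56, 39.9, 12.3 and 4.54 CPM, a 14.4-fold range with tumour 4 apart from the rest. The mitophagy receptor Bnip3 stood at 35.2, 26.4, 27.1, 76.0, 33.4 and 22.6 CPM and the stress gene Ndrg1 at 109.7, 76.3, 73.9, 180.4, 93.7 and 59.6 CPM, again highest in tumour 4. The glycolytic enzymes varied less: Pgk1 spanned 1.51-fold and was highest in tumour 4, whereas Ldha and Eno1 spanned 1.23 and 1.28-fold and were highest in tumour 1. The early-response transcription factor Fos was lowest in tumour 2 (19.9 CPM, against 42.2 to 52.8 in the other 5), and 7 of the 14 immediate early genes were lowest in tumour 2 (15% of all kept genes).

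Stromal matrix had the highest summed CPM of the 34 lists, a mean of 37088 CPM. Its summed length-scaled level had a mean of 38962 TPM. Col3a1 gave 28650 TPM of this, so the length-scaled level rests on the uncertain length of that gene. The 20 fibroblast and matrix genes summed to 42423, 38667, 34772, 43627, 36997 and 26043 CPM in tumours 1 to 6, a mean of 3.71% of all counts. Type I collagen Col1a1 stood at 5979.8, 5061, 4695, 6879.9, 5429.6 and 3559 CPM and type III collagen Col3a1 at 15229, 12822, 11737, 14460.3, 12390.3 and 8069 CPM. Tumour 6 was lowest for both, and for 14 of the 20 genes (18.8% of all kept genes), while tumour 4 was highest for 14 (19.5%). The small proteoglycan decorin (Dcn) stood at 44.6, 40.1, 50.9, 105, 70.2 and 46.0 CPM and the activated-fibroblast protease Fap at 3.73 to 8.49 CPM, both highest in tumour 4. Matrix genes are made by mesenchymal cancer cells as well as by fibroblasts, and the source was not tested.

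Vessel genes varied little. The 16 blood endothelial genes were all kept and summed to 341 to 429 CPM, a 1.26-fold range. The adhesion molecule Pecam1 stood at 60.3, 71.5, 51.5, 54.9, 58.9 and 54.0 CPM and VE-cadherin (Cdh5) at 35.4 to 55.6 CPM. Von Willebrand factor (Vwf) was the exception, at 10.3, 16.5, 14.6, 46.1, 26.7 and 11.9 CPM, highest in tumours 4 and 5. Per length, the smooth muscle genes Acta2 (mean 11.6 TPM) and Tagln (9.198 TPM) were lower than the pericyte receptor Pdgfrb (68.6 TPM). Among the lymphatic genes, Prox1, the defining transcription factor, stayed at 0.177 to 0.968 CPM.

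Peripheral nerve transcripts marked tumours 4 and 5. Myelin basic protein (Mbp), which compacts the myelin sheath, stood at 27.8, 18.2, 25.7, 47.3, 38.2 and 26.0 CPM, a 2.60-fold range. Of the 7 kept Schwann cell and nerve genes, 6 were highest in tumour 4 (19.5% of all kept genes), among them Mbp and periaxin (Prx, 10.6 to 27.7 CPM). The Schwann cell transcription factor Sox10 was below the filter at 0.0575 to 1.33 CPM. Epidermal markers Krt5, Krt1, Krt14 and Dsg1a were at or near 0, and 3 of the 17 keratinocyte and skin genes were kept. The keratinocyte keratins Krt5 and Krt1 and the desmosomal gene Dsg1a had a count of 0 in every tumour, and Krt14 reached at most 0.0497 CPM. The kept genes were Sfn at 1.34 to 3.001 CPM, the transcription factor Trp63 at 1.69 to 2.21 CPM and Krt10 at 0.558 to 1.38 CPM.

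Skeletal muscle was the component that varied most. Its 25 genes summed to 1256, 3119, 1149, 4618, 7421 and 1342 CPM in tumours 1 to 6, a 6.46-fold range. Tumours 5, 4 and 2 were high and tumours 1, 3 and 6 low, with a gap between the 2 sets. Tumour 5 was highest for 22 of the 24 kept genes (11% of all kept genes) and tumour 3 lowest for 20 (7.19%). Skeletal actin (Acta1, chromosome 8, 123891769 to 123894751) stood at 98.4, 265, 71.0, 369, 515 and 80.3 CPM, muscle creatine kinase (Ckm) at 36.5, 92.5, 24.3, 116, 191 and 28.6 and the fast myosin Myh4 at 53.8, 121, 33.8, 206, 293 and 45.2 CPM. Titin (Ttn), the giant spring protein of the sarcomere, stood at 694, 1728, 717, 2677, 4639.9 and 834 CPM. Titin is by far the longest of these transcripts, and it gave most of the summed CPM.

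Genes of fast fibres were prominent in this range. The fast myosin heavy chains Myh1 (24.3 to 255 CPM) and Myh4, fast troponins Tnnt3 (5.68 to 37.4) and Tnnc2 (1.85 to 13.8), the calcium pump Atp2a1 (51.7 to 357) and the calcium buffer parvalbumin (Pvalb, 3.32 to 28.7) were all highest in tumour 5. Not every fast gene had this order. The fast myosin Myh2 stood at 8.35, 28.24, 6.16, 28.17, 18.4 and 10.1 CPM, highest in tumour 2. Myoglobin (Mb) was highest in tumour 4, at 14.6 CPM against 11.2 CPM in tumour 5. The slow-fibre genes Myh7 (0.994 to 2.13 CPM), Myl2 (0.472 to 1.06), Tnnc1 (0.522 to 1.23) and Tnnt1 (0.583 to 1.27) did not follow the order of Acta1, and Myl2 and Tnnt1 were below the filter. Myh4 had a mean of 125.5 CPM and 36.0 TPM, and Myh7 one of 1.48 CPM and 6.15 TPM. The TPM of Myh7 lay above its CPM and that of Myh4 below, so a much shorter length was used for Myh7. Their TPM values are therefore not comparable. Mybpc1, the slow-type myosin-binding protein, followed the order of Acta1, at 9.54, 29.8, 8.82, 38.8, 52.5 and 9.03 CPM. Myh7, Myl2, Tnnc1 and Mybpc1 were chosen after their values were seen. The progenitor genes Pax7 and Myf5 were near 0, Myod1 reached 1.58 CPM, and embryonic myosin Myh3 stayed at 0.0507 to 0.266 CPM. Pearson r was 0.9 or more for 244 of its 276 gene pairs (88.4%), against 1.81% of all pairs of kept genes. Since myosin heavy chains are near-identical copies, the split between Myh1, Myh2 and Myh4 is uncertain.

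The Acta1 promoter is shown as the textbook muscle promoter, with its CArG box, the serum response factor element, in capitals (chr8:123894726-123895025, minus strand, RefSeq).
Acta1: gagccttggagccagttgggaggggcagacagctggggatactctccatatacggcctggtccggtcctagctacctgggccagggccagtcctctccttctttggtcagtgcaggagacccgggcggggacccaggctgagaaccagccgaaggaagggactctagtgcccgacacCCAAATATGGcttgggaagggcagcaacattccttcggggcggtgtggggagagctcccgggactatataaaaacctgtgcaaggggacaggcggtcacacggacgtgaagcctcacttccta
A CArG box was found in 2 of 22 promoters of the 19 muscle genes in the table, against 1.63% of all promoters, and a MEF2 box in 5 of 22, against 3.19%, each counted on both strands. The E-box letters CANNTG, the core bound by myogenic factors, were in 18 of 22 muscle promoters and in 72.3% of all promoters.

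Fat was highest in the same tumour as muscle. Tumour 5 was highest for 15 of the 16 kept adipocyte genes (11% of all kept genes), and the list summed to 764, 715, 649.9, 796, 1389 and 745 CPM. Adiponectin (Adipoq), a hormone made by fat cells, stood at 6.33, 2.56, 3.67, 5.74, 14.2 and 4.46 CPM, the complement protease adipsin (Cfd) at 27.7, 19.2, 18.8, 14.6, 79.8 and 24.0 CPM and the lipid-droplet protein Plin4 at 39.1, 29.8, 32.1, 45.3, 107 and 52.7 CPM. Tumour 5 stood apart from the other 5 for each. In the summed lists of fat and muscle, tumour 4 was second and tumour 3 last in both, and tumours 1 and 2 had changed places. Tumour 2 was lowest for 9 of the 16 fat genes (15% of all kept genes), and tumour 4 for 4, a share near the 24.7% of all kept genes. The uncoupling protein Ucp1, which defines brown fat, stayed at 0 to 0.0760 CPM.

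**Figure D2:**
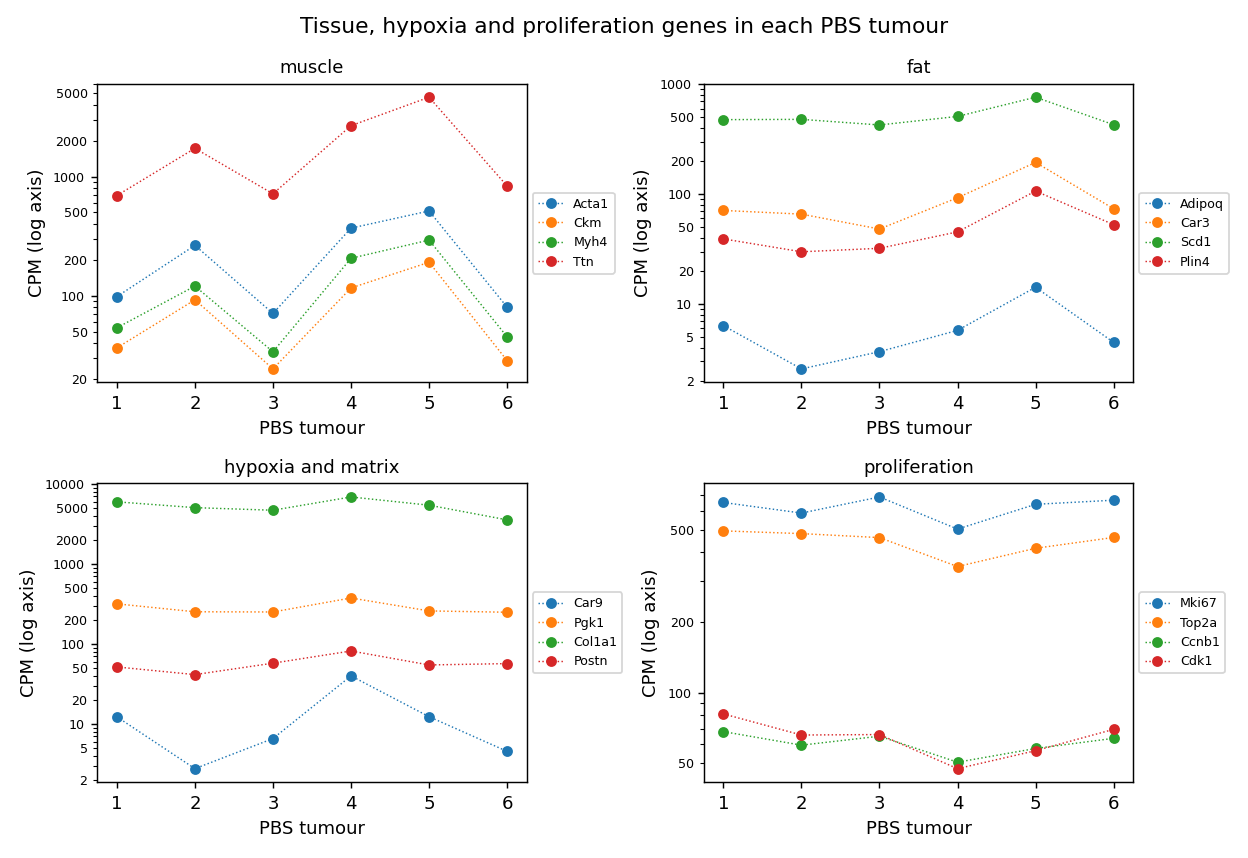
CPM on a log axis of 4 genes each of muscle, fat, hypoxia and matrix, and proliferation in the 6 PBS tumours; dotted lines join the values of 1 gene and carry no order between tumours. Muscle genes are high in tumours 2, 4 and 5, fat genes in tumour 5, and Car9 in tumour 4, where Mki67, Top2a, Ccnb1 and Cdk1 are lowest.

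Leukocyte transcripts were highest in tumour 6. The common leukocyte antigen CD45 (Ptprc) stood at 109.7, 117, 119.5, 93.1, 93.4 and 189.8 CPM, and 13 of the 15 pan leukocyte genes were highest in tumour 6 (21.9% of all kept genes), while 12 were lowest in tumour 4 (24.7%). The actin-bundling protein Lcp1 stood at 324, 249, 295, 184, 258 and 362 CPM and the leukocyte integrin chain Itgb2 at 70.2, 65.3, 54.5, 40.5, 41.6 and 72.1 CPM. The actin regulator Coro1a was slightly higher in tumour 1 (70.7 CPM) than in tumour 6 (69.1 CPM). The whole list summed to 1255, 1139.5, 1104, 854, 985 and 1489 CPM, a 1.74-fold range.

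Macrophage genes had another order. Their summed length-scaled level had a mean of 3290.2 TPM, against 99.2 TPM for the T cell list. The 21 genes, all kept, summed to 3040.5, 4046, 2359.7, 2301, 2229 and 2782 CPM, and 14 of them were highest in tumour 2 (14% of all kept genes). The receptor for colony-stimulating factor 1 (Csf1r), on which macrophages depend, stood at 429.5, 446, 326, 246, 288 and 400.1 CPM, with tumours 1, 2 and 6 high and 4 and 5 low. The mannose receptor Mrc1 stood at 266, 573, 169, 243, 191 and 218 CPM and the haemoglobin scavenger receptor Cd163 at 18.7, 87.5, 13.9, 33.2, 23.2 and 15.1 CPM, both highest in tumour 2. The complement chains C1qa (139 to 279.6 CPM), C1qb (96.1 to 216) and C1qc (99.3 to 241) had their highest values in tumour 2 and next in tumour 1. By contrast Cd68, a lysosomal glycoprotein, was highest in tumour 6 and lowest in tumour 4, at 69.6, 57.2, 62.1, 29.8, 56.2 and 81.3 CPM.

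Several other genes, most of them picked for this order, were highest in tumour 2. Arginase 1 (Arg1), which consumes arginine, stood at 41.7, 127, 23.2, 42.0, 25.1 and 30.4 CPM. The lectin Mgl2 (13.8, 41.2, 8.46, 17.1, 7.83 and 9.96 CPM), the arginine transporter Slc7a2 (11.7, 70.6, 11.02, 15.6, 15.8 and 12.5 CPM) and the chemokine Ccl8 (49.2, 160.2, 25.9, 34.2, 27.1 and 45.1 CPM) had the same tumour highest. So did Pdcd1lg2, which encodes PD-L2, at 8.54 CPM in tumour 2 and 1.39 to 2.74 in the other 5, and Cd209e at 11.7 CPM against 0.684 to 2.32. The chitinase-like protein Chil3 was at 7.33 CPM in tumour 2 and at 0 to 0.129 CPM in the others, so it did not pass the filter. Retnla, a secreted protein of macrophages, was high in tumours 2 and 4, at 2.98, 24.4, 2.36, 16.5, 8.38 and 2.07 CPM. Nos2, the inducible nitric oxide synthase, spanned 1.97 to 4.74 CPM and was also highest in tumour 2. Mgl2, Slc7a2, Ccl8, Pdcd1lg2, Cd209e, Chil3 and Nos2 were chosen after their values were seen.

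MHC class II genes, which present antigen to CD4 T cells, were high in tumours 2 and 6 and low in tumour 5. H2-Ab1, a chain of I-A, stood at 216, 333, 145, 153, 114 and 264 CPM and the invariant chain Cd74 at 574, 1046, 367, 463, 301 and 668 CPM. All 9 kept genes were lowest in tumour 5 (8.95% of all kept genes), 5 were highest in tumour 2 (14%) and 4 in tumour 6 (21.9%). Their transactivator Ciita stood at 39.3, 50.1, 34.8, 36.5, 30.0 and 59.1 CPM, highest in tumour 6. Dendritic cell genes split in the same way: the integrin Itgax (16.0, 28.1, 11.4, 10.6, 9.91 and 23.3 CPM) and the migratory receptor Ccr7 (8.71 to 15.7 CPM) were highest in tumour 2, and the cross-presenting markers Xcr1 (3.77 to 9.67 CPM) and Clec9a (2.11 to 4.46 CPM) in tumour 6.

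T cell transcripts were highest in tumour 6. The CD3 chain Cd3e stood at 8.397, 10.6, 7.50, 5.16, 4.94 and 13.9 CPM, Cd4 at 5.86, 10.1, 5.07, 4.49, 4.61 and 8.79 CPM and Cd8a at 3.95, 3.48, 5.02, 3.94, 3.92 and 7.94 CPM. 20 of the 21 kept T cell genes were highest in tumour 6 (21.9% of all kept genes), and the exception was Cd4, which was highest in tumour 2. Macrophages can also carry Cd4 transcript. The receptor constant segments Trac and Trbc1 reached 2.10 to 5.29 and 2.13 to 4.99 CPM. The regulatory T cell factor Foxp3 stood at 8.15, 6.44, 9.10, 7.61, 8.71 and 13.0 CPM and was highest in tumour 6, as were 8 of the 9 kept genes of that list (21.9% of all kept genes). Foxp3 overlaps Ccdc22 in the annotation, so its level is uncertain, and Ctla4 was near 0 at 0.0248 to 0.230 CPM.

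Cytotoxic genes had the widest range among the lymphocyte lists. The list summed to 49.0, 41.2, 48.3, 32.2, 40.9 and 87.9 CPM, and 12 of the 13 kept genes were highest in tumour 6 (21.9% of all kept genes). Nkg7, a granule protein of cytotoxic cells, stood at 3.38, 3.31, 3.34, 2.03, 3.89 and 7.28 CPM, the granzyme Gzma at 4.37, 2.24, 2.46, 1.77, 1.96 and 7.49 CPM and perforin (Prf1) at 3.38, 2.79, 3.88, 2.001, 2.80 and 6.46 CPM. The natural killer receptor Ncr1 stood at 2.71, 2.04, 2.79, 2.03, 1.45 and 5.69 CPM and Klrd1 at 1.24, 1.15, 1.90, 1.0003, 1.57 and 4.86 CPM, each more than 2-fold higher in tumour 6 than in any other. Interferon gamma itself (Ifng) was below the filter, at 0.0904 to 0.748 CPM.

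Of the B cell list 8 of 14 genes were kept, and of the neutrophil list 6 of 15. The B cell antigen CD20 (Ms4a1) stood at 0.978 to 1.99 CPM. The immunoglobulin chain Igkc stood at 0.770, 3.19, 1.27, 0.258, 1.24 and 2.02 CPM, highest in tumour 2. The neutrophil proteins S100a8 (0.124 to 0.584 CPM) and S100a9 (0.0497 to 0.279 CPM) were near 0 and Ly6g had no count in any tumour. Other genes of the list were kept, among them the receptors Csf3r at 10.2 to 24.0 CPM, Cxcr2 at 4.75 to 9.46 CPM and Clec4d at 2.88 to 4.19 CPM. The gelatinase Mmp9 of that list stood at 453, 166, 354, 74.9, 220.4 and 374 CPM, a mean of 259 TPM against 1.25 TPM for S100a8. Mast cell proteases were present in every tumour, with Tpsab1 at 98.3, 67.9, 76.0, 34.0, 56.6 and 76.1 CPM and carboxypeptidase Cpa3 at 16.4, 10.9, 13.2, 6.71, 11.3 and 13.4 CPM, both highest in tumour 1 and lowest in tumour 4. The tryptases Tpsab1 and Tpsb2 are close copies, so their split is uncertain.

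Mmp9 was high and low in the same tumours as genes known from osteoclasts, the bone-resorbing cells of the macrophage lineage. The acid phosphatase Acp5 stood at 178, 43.7, 152, 25.8, 104 and 165 CPM and the collagenase cathepsin K (Ctsk) at 236, 60.8, 203, 39.0, 130.2 and 200.2 CPM, with tumours 1, 3 and 6 high, tumour 5 between, and tumours 2 and 4 low. The proton pump subunit Atp6v0d2 (31.5, 12.3, 34.8, 6.94, 27.0 and 38.9 CPM) and the fusion proteins Dcstamp (3.08, 1.67, 4.21, 1.03, 1.99 and 4.33 CPM) and Ocstamp (12.05, 3.80, 14.5, 6.13, 9.52 and 15.4 CPM) were lower in tumours 2 and 4 as well. Nfatc1, the transcription factor of osteoclast formation, stood at 203, 92.5, 214, 117, 177 and 214 CPM. This order differs from that of Csf1r, which was highest in tumour 2. Acp5, Ctsk, Atp6v0d2, Dcstamp, Ocstamp and Nfatc1 were chosen after their values were seen.

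**Figure D3:**
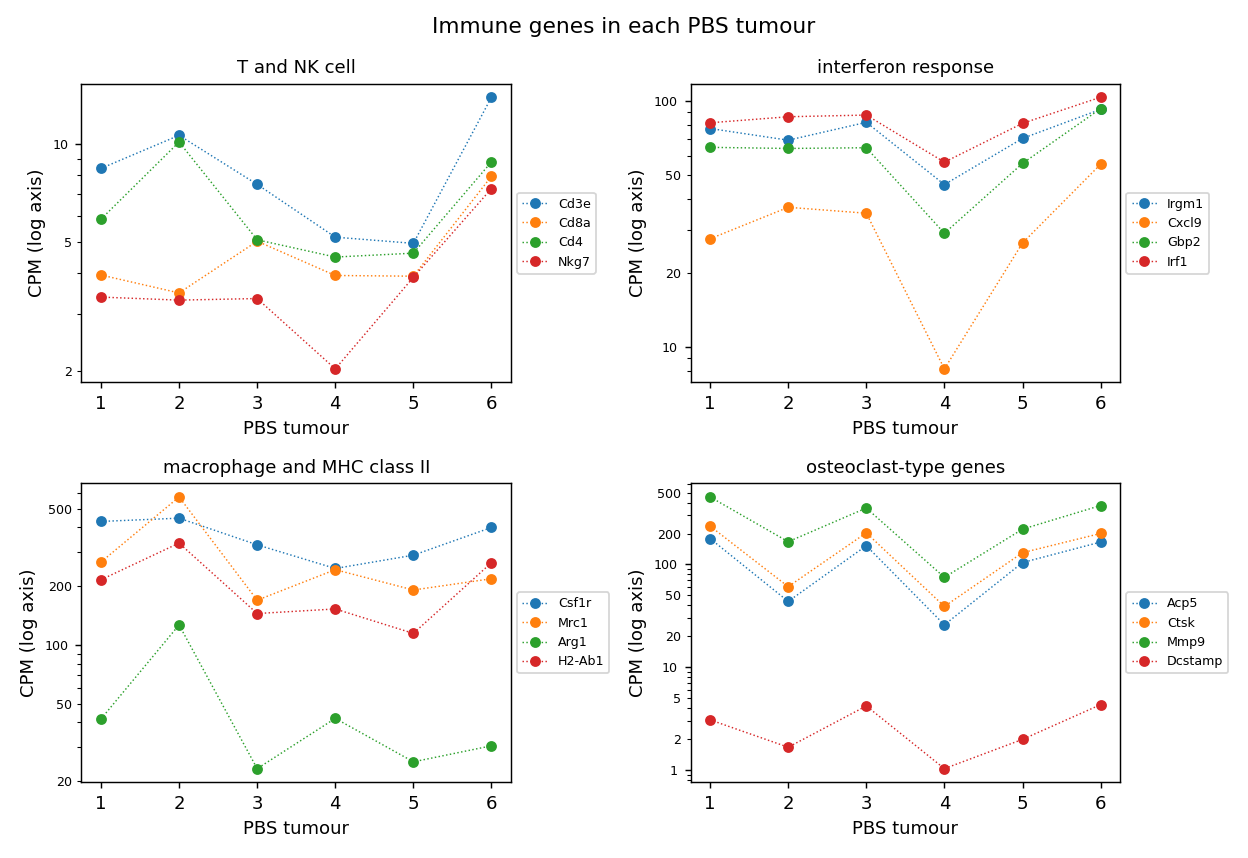
CPM on a log axis of T and NK cell, interferon response, macrophage and MHC class II, and osteoclast-type genes in the 6 PBS tumours; dotted lines join the values of 1 gene and carry no order between tumours. Cd3e, Cd8a and Nkg7 are highest in tumour 6, Mrc1 and Arg1 in tumour 2, the 4 interferon response genes are lowest in tumour 4, and the osteoclast-type genes are low in tumours 2 and 4.

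Interferon gamma response genes separated tumour 4 from tumour 6. Interferon gamma induces GTPases, chemokines and antigen-presentation genes. The chemokine Cxcl9, which attracts activated T cells, stood at 27.6, 37.0, 35.0, 8.16, 26.5 and 55.3 CPM and the GTPase Gbp2 at 64.8, 64.1, 64.5, 29.0, 55.7 and 93.0 CPM. 21 of the 22 kept genes were lowest in tumour 4 and 20 highest in tumour 6 (24.7% and 21.9% of all kept genes). The exception at the low end was Cd274, which encodes PD-L1. It stood at 12.4, 20.3, 16.6, 12.5, 19.3 and 23.1 CPM, lowest in tumours 1 and 4. Class I presentation genes had the same tumours at the ends: 13 of the 16 genes were highest in tumour 6 and 13 lowest in tumour 4, beside the same shares. B2m stood at 309, 301, 279, 163, 242 and 454 CPM and the immunoproteasome subunit Psmb8 at 66.7, 44.9, 46.2, 27.8, 38.2 and 69.9 CPM. Several of these genes, such as the H2-Q, Gbp and Tgtp families, are near-identical copies whose split is uncertain.

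The promoters of Irf1 and Gbp2 are shown because they carry the 2 elements of the interferon pathway, the gamma-activated sequence GAS (TTCNNNGAA) and the interferon-stimulated response element ISRE (TTTCNNTTTC), both searched on both strands. Irf1 is at chr11:53769764-53770063 with its GAS in capitals, and Gbp2 at chr3:142620413-142620712 with its ISRE in capitals, both on the plus strand (RefSeq). A second Irf1 promoter, at chr11:53770223-53770522, held neither element and is not shown.
Irf1: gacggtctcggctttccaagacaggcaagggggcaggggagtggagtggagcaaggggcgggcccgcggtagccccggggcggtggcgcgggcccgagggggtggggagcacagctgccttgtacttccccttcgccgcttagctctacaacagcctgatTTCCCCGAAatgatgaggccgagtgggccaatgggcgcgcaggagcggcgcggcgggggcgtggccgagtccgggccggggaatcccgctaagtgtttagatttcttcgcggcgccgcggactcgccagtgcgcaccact
Gbp2: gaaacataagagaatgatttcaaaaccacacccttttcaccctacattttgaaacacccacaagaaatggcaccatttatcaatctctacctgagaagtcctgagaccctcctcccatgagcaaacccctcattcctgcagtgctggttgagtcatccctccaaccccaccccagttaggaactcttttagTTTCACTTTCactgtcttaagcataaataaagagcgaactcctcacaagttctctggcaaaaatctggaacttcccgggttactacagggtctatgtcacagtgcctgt
A GAS was in 8 of 17 promoters of the 15 interferon gamma genes in the table, against 8.30% of all promoters. An ISRE was in 11 of 17, against 3.44%. Irf1 stood at 81.5, 86.2, 87.6, 56.4, 81.1 and 103 CPM, so it spanned 1.83-fold where Gbp2 spanned 3.21-fold, and both were lowest in tumour 4 and highest in tumour 6.

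Type I interferon genes had yet another order. 16 of the 18 genes were highest in tumour 3 (9.17% of all kept genes) and 9 lowest in tumour 2 (15%). Ifit1, an RNA-binding antiviral protein, stood at 18.6, 13.5, 26.9, 17.2, 19.4 and 18.7 CPM, the GTPase Mx2 at 4.87, 5.29, 8.77, 6.00, 7.14 and 6.08 CPM and Rsad2 (viperin) at 9.37, 8.14, 13.96, 9.52, 12.5 and 7.36 CPM. The summed list spanned 1.47-fold, less than the 2.52-fold of the interferon gamma list. An ISRE was in 8 of 15 promoters of the 14 type I genes in the table.

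Most genes varied little beyond this. The median SD of log2 CPM over the 6 tumours was 0.16, and 81.4% of the kept genes had less than a 2-fold range between the highest and lowest tumour. An SD of 1 or more was reached by 159 genes, 1.04% of those kept, and 20 of them were among the 24 kept skeletal muscle genes. At the edge of that limit, Ryr1 and Slc7a2 lay just inside with an SD of 1.01 each, and Tnxb just outside with 0.99. At 1 CPM the counting error alone gives an SD of 0.24, and at 5 CPM one of 0.11. None of the 29 proliferation genes, the 20 matrix genes or the 16 endothelial genes reached 1.

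Among genes with a mean of 5 CPM or more, the largest SD was that of the histone gene Hist2h2aa2, 1.98, at 16.6, 18.001, 12.3, 1.68, 3.19 and 0.584 CPM. It has a near-identical neighbouring copy, so its value is uncertain. Retnla had an SD of 1.51. Of the 20 most variable genes, 12 were muscle proteins or enzymes (Myl1, Ky, Myh1, Ppp1r3a, Myoz1, Myh4, Mylpf, Pvalb, Acta1, Prkaa2, Pygm and Ckm). Scara3, Aldh1a3 and Fndc1 were high in tumours 4 and 5, Car9 was highest in tumour 4, and the endothelial lipase Lipg was highest in tumour 6 at 22.1 CPM, against 2.30 to 7.41 in the rest. The steadiest genes varied hardly at all: the ring-finger protein Rnf216 (103 to 105 CPM), the syntaxin Stx4a (34.7 to 35.5) and Zzef1 (169 to 172) had an SD of 0.01.

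**Figure D4:**
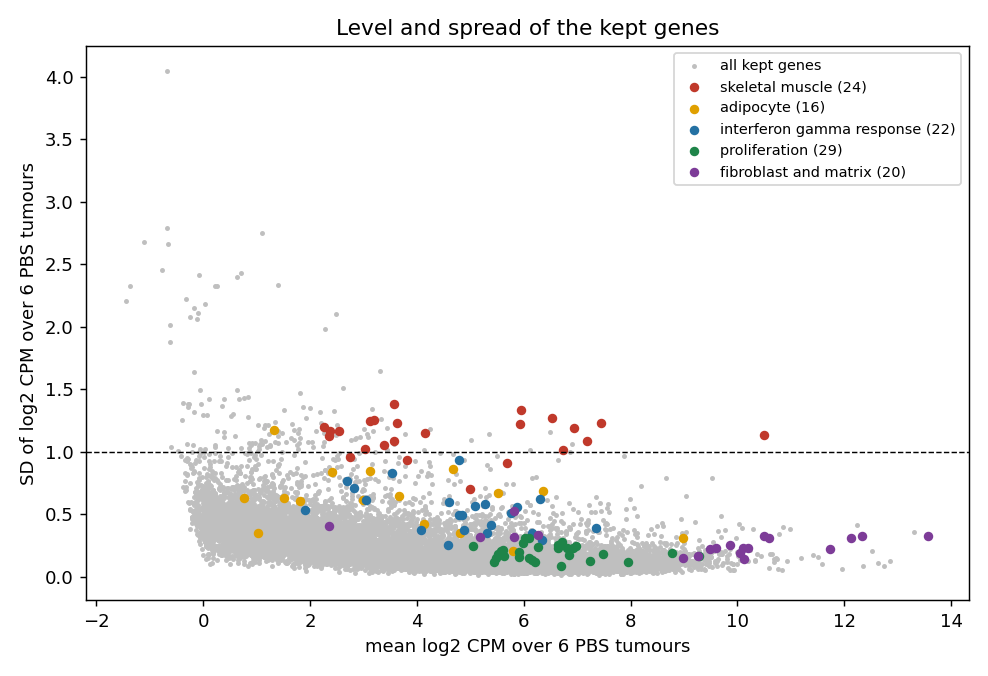
Mean and SD of log2 CPM over the 6 PBS tumours for the 15323 kept genes (grey), with 5 gene lists in colour and the SD of 1 as a dashed line; numbers in parentheses count the genes plotted. Of the 24 kept skeletal muscle genes 20 lie at or above the line, and all 29 proliferation genes lie below it.

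The variable genes fell into groups by how they varied together. Of the genes with an SD of 1 or more and a mean of 1 CPM or more, 151 were clustered on Pearson r, and 113 fell into 3 groups of at least 10 genes. The clusters were made from these same values, so their profiles are descriptions. The first group held 75 genes, 20 of them from the muscle list, and the others included the myosin-binding proteins Mybpc1 and Mybpc2 (15.0 to 82.1 CPM) and the metabolic kinase Pdk4 (3.59 to 19.2 CPM). Its mean log2 level relative to each gene's mean was -0.81, 0.52, -1.21, 1.02, 1.44 and -0.95 in tumours 1 to 6. The genes closest to that mean were Myoz1, Acta1, Atp2a1, Ryr1 and BC067074. Without tumour 5 the group held 42 genes. Mybpc1, Mybpc2 and Pdk4 were chosen after their values were seen.

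The second group held 27 genes and was high in tumours 4 and 5 and lowest in tumour 2, at -0.55, -1.35, -0.30, 1.79, 1.23 and -0.82. Its closest genes were Chrdl1, a BMP antagonist (1.57, 0.978, 1.82, 6.52, 6.09 and 1.30 CPM), the cofactor Vgll3 (1.66, 1.06, 2.41, 9.36, 5.45 and 1.83 CPM), Slc4a4, a bicarbonate transporter, the secreted Wnt modulator Sfrp4 and the ectonucleotidase Entpd2. It also held Car9. Others were the complement component C7 (0.795, 1.06, 1.04, 6.42, 4.34 and 0.478 CPM) and the glypican Gpc3 (1.02, 0.518, 1.11, 4.49, 3.13 and 0.345 CPM). The connective tissue genes Tnxb (104, 54.9, 117, 337, 188 and 59.9 CPM) and Clec3b (7.33, 5.003, 6.99, 21.2, 13.7 and 4.81 CPM), outside the limit, had the same order at the top. C7, Gpc3, Tnxb and Clec3b were chosen after their values were seen. The group differed from the muscle group in tumour 2, where muscle was above its mean and these genes were at their lowest. Without tumour 2 it merged with the muscle group into 1 group of 109 genes, and without tumour 4 it was not found.

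The third group held 11 genes, low in tumours 2 and 4 and highest in tumour 6, at 0.68, -1.52, 0.72, -1.66, 0.61 and 1.18. It held Acp5 and Ctsk beside Cyp2s1 (23.9, 4.08, 22.02, 6.10, 18.2 and 26.1 CPM), Tm4sf19 (4.79, 1.21, 6.61, 1.36, 4.37 and 5.53 CPM) and Rufy4 (4.50, 1.35, 4.26, 0.742, 3.04 and 4.81 CPM), and 2 unnamed gene models. It was close to the smallest size allowed, and Acp5 was in no group of at least 10 genes in several other settings. These were libraries thinned to 1 total, 1 CPM required in all 6 tumours, and no filter beyond 1 count. The others were a prior count of 5, Spearman's rho, and tumour 4 or tumour 6 left out. With genes of an SD of 0.75 or more (2.48% of all kept genes), the Acp5 group held 24 genes. This looser limit was added after the data were seen. The group then took in Mmp9, Dcstamp, Ocstamp, Atp6v0d2 and Siglec15 (0.613 to 2.68 CPM). That limit gave 6 groups from 349 genes. The fifth, of 12 genes, was the Arg1, Cd163, Slc7a2, Mgl2 and Ccl8 group of tumour 2, at -0.36, 1.73, -0.69, -0.01, -0.42 and -0.26. The sixth, of 10 genes, was lowest in tumour 4 and held Cxcl9, Acod1 (2.51, 2.53, 3.52, 0.387, 2.32 and 4.99 CPM), Gbp11 (0.742 to 3.56 CPM) and Serpina3g, at 0.24, 0.94, 0.40, -2.57, -0.03 and 1.02. Of its 10 genes 6 were gene models, pseudogenes or immunoglobulin genes, Gbp11 among them. Apol7e, Gm10241 and Gm9830 of this group had 0 CPM in tumour 4, which lowered the mean there. Siglec15, Acod1 and Gbp11 were chosen after their values were seen. The fourth held 23 genes, 16 of them gene models or pseudogenes, and was lowest in tumour 1, the deepest library, at -1.53. The part of depth in it was not tested.

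**Figure D5:**
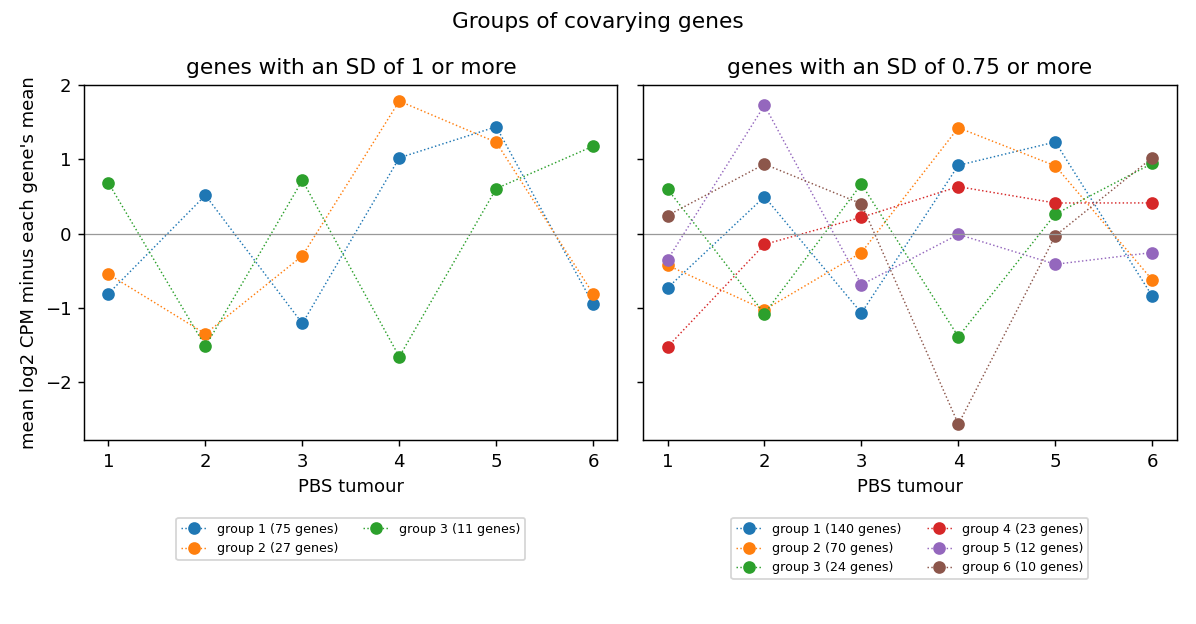
Mean log2 CPM of each group of covarying genes relative to each gene's own mean in the 6 PBS tumours, for genes with an SD of 1 or more (left) and 0.75 or more (right); dotted lines join 1 group and carry no order. The muscle group (group 1) peaks in tumour 5 and the Vgll3 group (group 2) in tumour 4, and group 3 is low in tumours 2 and 4.

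Relations between single marker genes were tested across the 6 tumours with 14 markers, 12 of them kept, and 91 pairs. The exact permutation test over the 720 orderings, two-sided with Benjamini-Hochberg adjustment over the 91, called none at 0.05 by Pearson r (lowest adjusted p 0.337) or by Spearman rho (0.253). Unadjusted, 11 pairs passed by r and 6 by rho. With 6 tumours the smallest possible exact permutation p by rho was 0.00278. Col1a1 with Pgk1 reached it at rho = 1 (r = 0.81), and that gave the adjusted p of 0.253 in this test. A single pair could therefore not be called by rho, however strong. The 720 orderings limit r in the same way, so the absence of calls says little about these relations. Msln and Csf1r gave r = 0.92 (exact p = 0.00417) and rho = 0.94 (exact p = 0.0167). Without the 2 tumours farthest from the median of Msln, tumours 4 and 5, r was 0.92. The adjusted p of these exact permutation tests was 0.337 by r and 0.506 by rho. Col1a1 and Nkg7 were related inversely, with r = -0.91 (exact p = 0.0319) and rho = -0.54 (exact p = 0.297), and r was 0.27 without tumours 4 and 6, so this relation rested on those tumours. Its adjusted p was 0.346 by r and 0.629 by rho in the same exact permutation tests.

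Over all kept genes, the first principal component held 40.0% of the variance and the second 26.3%. Tumours 4 and 5 lay at one end of the first, with scores of -33.2 and -21.7, and tumour 1 at the other, with 34.8. Tumour 6 lay alone at one end of the second, with 33.3. Genes at the tumour 1 end of the first component included Apol7e, the histone genes Hist2h2aa2, Hist1h2ao and Hist1h2ai, and Acp5, Ctsk, Mmp9 and Acod1. Those at the tumour 4 end included C7, Scara3, Vgll3 and Sfrp4, and Fitm1 and Cox8b of the muscle group. Genes at the tumour 6 end of the second included Lipg, Klrd1 and Acod1, and at the other end Retnla, Myl1, Mylpf and Mb. The median gene of the interferon gamma list ranked at the 97.3 percentile of loadings on the first component and the 96.8 percentile on the second, and that of the muscle list at 0.496 and 0.388.

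The first component also followed sequencing depth. Its scores were related to the log2 library total with r = 0.94 (exact permutation p = 0.0111, adjusted over 6 relations 0.0333) and rho = 0.83 (exact p = 0.0583, adjusted 0.175), and r was 0.73 without the 2 libraries farthest from the median total. With every library thinned to the lowest total, the first component held 39.9% of the variance, its scores correlated at 0.999 with the unthinned ones, and its r with the full totals was 0.94 (exact permutation test, adjusted p 0.0667). The second component followed the number of genes with a count, with r = 0.93 (exact permutation p = 0.00556, adjusted 0.0333) and rho = 0.83 (exact p = 0.0583, adjusted 0.175), and r was 0.92 without the 2 farthest. The mitochondrial share, highest in tumour 2 and lowest in tumour 1, gave r = -0.49 and -0.20 with the 2 components (exact permutation test, adjusted p 0.636 and 0.793) and rho = -0.43 and -0.03, and r was -0.94 and -0.78 without the 2 farthest tumours. 11 of its 13 genes were highest in tumour 2 and 12 lowest in tumour 1 (14% and 25.4% of all kept genes). The calls at 0.05 for both components were lost without tumour 1, 3, 4, 5 or 6, with r between 0.70 and 0.96 for the first and between 0.41 and 0.94 for the second, and adjusted p between 0.0667 and 0.55 in exact permutation tests over 5 tumours. The calls held without tumour 2. With 5 tumours there are fewer orderings and the smallest possible p is larger, so a call can be lost without a weaker relation. Without tumour 3, r for the first component was 0.96 (exact permutation test, adjusted p 0.1), above the 0.94 of all 6 tumours. Without tumour 4, r was 0.70 for the first component and 0.41 for the second. What the depths and gene numbers contribute to these orders of tumours cannot be told apart from the tumours themselves.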

How the data were processed

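RNA from 6 PBS tumours was extracted with a QIAGEN RNeasy Plus Mini kit, freed of globin and ribosomal RNA, and read as 100 bp pairs on a NovaSeq, per the labels' protocols. The authors deposited a table of estimated counts per gene symbol. The submitters' processing notes name bcl2fastq 2.20.0.422, kallisto (version not given in the sources used here) and GRCm38.p6. The counts, of which 35.7% to 37.6% were not whole, were rounded to whole numbers. Only the PBS columns were used. A few genes are not reported here.

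Counts were TMM scaled with edgeR 4.0.16 in R 4.3.3 (factors 0.960 to 1.04) and genes with at least 1 CPM in at least 3 of the 6 tumours were kept. Log2 CPM used a prior count of 2. Python 3.11.15 with numpy 2.4.6, scipy 1.17.1 and pandas 2.3.3 gave the summaries and exact permutation tests. Totals of 30746690 to 41932945 counts give a counting SD of 0.24 on the log2 scale at 1 CPM, which covers counting error only. TPM here is TMM CPM divided by the median length of a gene's coding transcripts in GENCODE M21, which matched 35973 of 35999 symbols. That median includes short annotated transcripts, so TPM can be overstated for some genes, and comparisons of TPM between genes are approximate. Covarying genes were grouped by average linkage on 1 minus Pearson r, cut at 0.3, in groups of 10 or more. The labels tie no tumour to a mouse, so p-values measure only the spread between these samples. The grouping step was run on simulated counts with known blocks of changed genes, at a smaller spread between tumours than in these data. The permutation test was run on a straight line and on a fixed shuffle of it. Neither check measures how the steps perform at the spread seen here.

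The genes named were the 20 highest length-scaled, the 20 most and 10 least variable with a mean of 5 CPM or more (without pseudogenes, receptor segments, small RNAs and model names), up to 4 of each list by mean CPM with its most variable and near-zero defining members, a set of single markers, and the 5 closest to each group's mean. The members and lists were chosen with earlier results of these data known. These list members were named beyond those ranked choices, after their values were seen: Acta2, Bap1, Bnip3, C1qa, C1qb, C1qc, Calb2, Ccnb1, Ccnb2, Ccr7, Cd274, Cd68, Cdk1, Cdkn2b, Cfd, Chil3, Ciita, Cldn4, Cldn7, Clec9a, Coro1a, Ctla4, Dsg1a, Epcam, Esrp1, Fap, Gbp2, Gzma, Ifit1, Ifng, Itgb2, Krt1, Krt18, Krt19, Krt5, Lats2, Ly6g, Mb, Mcm4, Muc16, Mx2, Myc, Myf5, Myh2, Myh3, Ncr1, Ndrg1, Ovol1, Pax7, Plk1, Prf1, Prox1, Rsad2, S100a9, Serpina3g, Snai1, Sox10, Tagln, Tnnc2, Tnnt1, Tnnt3, Trac, Trbc1, Trp53, Twist1, Upk3b and Xcr1. Alternatives were other scalings, filters, library sizes, prior counts, thinning to the lowest total, each tumour left out, another gene length, another measure of spread, and another height and correlation for the groups. Groups at an SD of 0.75, components of thinned counts against the full totals, and components without the muscle group were added after seeing the data.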

Additional observations from a re-analysis of the deposited data

Results flagged for a closer look

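Each value below is the gap between the extreme tumour and its nearest neighbour, divided by the whole range of the 6 tumours. A value above 0.625, Dixon's critical value for 6 samples, marks a tumour far from the others. Chance marks about 1 in 20 groups of normally distributed values that were not chosen for their values. The gaps were taken on the linear scale, where a high tumour is marked more readily than on a log scale. A log scale was not tried, so the marks are descriptions of linear values. Many genes here entered because they varied most or were seen to be high in 1 tumour, so the number marked is not set against that share. Of 278 results 39 were marked: 11 for tumour 2, 14 for tumour 6, 7 for tumour 5, 5 for tumour 1, and 1 each for tumours 3 and 4. Genes of 1 list are not independent of each other.

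Tumour 2 stood apart, highest unless stated, for Fos (0.677, lowest), Lyz2 (0.731), Mrc1 (0.761), Cd163 (0.738), mt-Cytb (0.662), Arg1 (0.818), Mgl2 (0.723), Ccl8 (0.827), Cd209e (0.851), Pdcd1lg2 (0.811) and Slc7a2 (0.921). Tumour 6 stood apart, highest unless stated, for the summed NK and cytotoxic list (0.699), the summed B cell list (0.763), the share of counts on receptor gene segments (0.673), Eif4g2 (0.627, lowest), Lipg (0.742), Ptprc (0.727), Lck (0.655), Bcl11b (0.721), Klrk1 (0.636), Ctsw (0.755), Klrd1 (0.767), Ighm (0.684), Cd8a (0.656) and Nkg7 (0.647). Tumour 5 stood apart, highest unless stated, for the summed adipocyte list (0.803), Ky (0.697), Scd1 (0.751), Car3 (0.696), Plin4 (0.702), Pck1 (0.665) and Adipoq (0.675). Tumour 1 stood apart, highest unless stated, for the summed mesenchymal and epithelial state list (0.634), the summed plasma cell list (0.684), Vim (0.681), Zeb2 (0.738, lowest) and Junb (0.684). Tumour 3 stood apart, highest unless stated, for Setd2 (0.688). Tumour 4 stood apart, highest unless stated, for Car9 (0.742). The plasma cell sum was mostly Sdc1, which other cells also express. Of the 4 kept genes of that list 3 were highest in tumour 2 (14% of all kept genes), and Igkc stood at 0.770 CPM in tumour 1 and 3.19 CPM in tumour 2. Mgl2, Ccl8, Cd209e, Pdcd1lg2 and Slc7a2 were chosen after their values were seen.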

How the results depend on the processing

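Of 1229 values recomputed under another setting, 1182 kept their direction and side of the threshold or stayed within the spread, 29 moved, 18 were no longer past the threshold, and none reversed. The 544 list levels and the 187 marker pair values were among those that stayed, which says little about robustness. A list level counted as staying when its mean moved by less than its SD over the 6 tumours, a wide margin. No marker pair was called at 0.05 to begin with, so these pairs could only gain a call or change direction. No paired analysis was possible because there is 1 group and no contrast. The 159 genes with an SD of 1 became 82 with 1 CPM required in all 6 tumours, 784 with no filter beyond 1 count, 380 at an SD of 0.75 and 67 by edgeR's tagwise dispersion, where the muscle list gave 8 in place of 20. The Vgll3 group of 27 held 16 genes with 1 CPM in all 6 tumours. The Acp5 group held 11 genes. With 1 CPM in all 6 tumours, with no filter or after thinning, Acp5 was in no group of at least 10 genes. The same held with a prior count of 5 and by Spearman's rho. From an SD of 0.75, a setting chosen after seeing the data, there were 6 groups, with 140 genes in the muscle group, 70 in the Vgll3 group and 24 in the Acp5 group. Component 1 held 29.1% of the variance with no filter. Its r with the library total was 0.90 (exact permutation test, adjusted p 0.0583) with no scaling, 0.90 (0.0667) with no filter, 0.94 (0.0667) after thinning and 0.88 (0.075) without the muscle group, the last chosen after seeing the data. The r of component 2 with the number of genes with a count was 0.86 (exact permutation test, adjusted p 0.0583), 0.93 (0.05), 0.75 (0.292) and 0.86 (0.075) in the same settings. Of the 20 highest length-scaled genes, 10 stayed with all exons joined, since that changes the length itself. For the rest the cause was not tested.

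With each tumour left out in turn, there were 108 to 183 variable genes, 14 to 22 of them in the muscle list, and 1 to 4 groups, with 42 to 109 genes in the muscle group, 0 to 109 in the Vgll3 group and 0 to 18 in the Acp5 group. A size of 0 means that the gene naming the group was in no group of at least 10 genes. Component 1 held 41.8% to 51.0% and component 2 20.4% to 31.4% of the variance. The r of component 1 with the library total was 0.70 to 0.98, and that of component 2 with the number of genes with a count 0.41 to 0.95. Depth limits the genes near 1 CPM, and 6 tumours from 1 cell line limit every relation between tumours.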
